A study of Mus musculus with 10 samples.

Results

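The mitochondrial genome of the mouse carries 37 genes, and all 37 were among the 46071 rows of the gene count table. They were chosen by name alone, as the rows whose Ensembl identifiers carry a symbol starting with mt-, and comprise 13 protein genes, 2 ribosomal RNA (rRNA) genes and 22 transfer RNA (tRNA) genes. A filter on low counts kept 30 of them for testing, namely the 13 protein genes, both rRNA genes and 15 tRNA genes.

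The libraries were made from liver RNA of first-generation offspring, selected for poly(A) tails. FL offspring, born to control mothers mated with LIRKO fathers (IRlox/lox; Albumin-Cre+/-), were sequenced as 3 libraries, numbered 5 to 7. ML offspring, born to LIRKO mothers mated with control fathers, were sequenced as 3 libraries, numbered 8 to 10. Control offspring came from 2 control parents (IRlox/lox; Albumin-Cre-/-), and were sequenced as 4 libraries, numbered 1 to 4. LIRKO mice lack the insulin receptor in hepatocytes, because the Albumin promoter drives the Cre recombinase that cuts the floxed receptor gene. Every parent therefore carried the floxed receptor alleles, and the control parents had been bred without Cre for 4 generations. The labels give neither the age, the sex nor the Cre genotype of the offspring themselves. The libraries are listed as separate samples, but not stated to be 1 animal each, and the spread that p-values rest on is therefore that between libraries, which may be partly technical.

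Mitochondrial DNA is a small circle that is transcribed from both strands into long RNAs. These are cut at the tRNAs that lie between most of the other genes, which frees the messenger RNAs and rRNAs, and most of the messenger RNAs then receive short poly(A) tails. The proteins are core subunits of respiratory complexes I, III and IV and of the ATP synthase, and they are built together with many subunits encoded in the nucleus. Hepatocytes are rich in mitochondria, which carry out oxidative phosphorylation, fatty acid oxidation and part of the urea cycle.

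The sequences that follow come in 2 sets. The first set holds the 5 tRNA genes with the highest mean level, and mt-Tl1, the tRNA gene with the lowest p in offspring of LIRKO mothers. Each is written as DNA on its coding strand, with the anticodon in capitals, at GRCm38 positions chrM:15356-15422 (minus strand), chrM:14071-14139 (minus), chrM:11671-11741 (plus), chrM:5192-5257 (minus), chrM:5089-5159 (minus) and chrM:2676-2750 (plus).
mt-Tp: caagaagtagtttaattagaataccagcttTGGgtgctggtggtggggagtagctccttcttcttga
mt-Te: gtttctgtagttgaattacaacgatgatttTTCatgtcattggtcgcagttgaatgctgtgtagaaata
mt-Tl2: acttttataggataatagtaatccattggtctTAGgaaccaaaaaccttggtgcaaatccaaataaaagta
mt-Tc: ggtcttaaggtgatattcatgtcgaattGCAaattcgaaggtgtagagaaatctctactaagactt
mt-Tn: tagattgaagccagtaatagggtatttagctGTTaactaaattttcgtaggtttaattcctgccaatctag
mt-Tl1: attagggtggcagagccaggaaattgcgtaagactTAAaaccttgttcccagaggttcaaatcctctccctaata

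The second set shows how little separates parts of the mitochondrial genome from copies of it in the nuclear genome. It aligns a stretch of mt-Co1 (chrM:6390-6509), which encodes the catalytic subunit of complex IV, with the pseudogenes Gm29216 (chr1:24616069-24616188, minus strand) and Gm13340 (chr2:22588466-22588585, minus strand), and the start of mt-Nd3 (chrM:9459-9518), a complex I subunit, with Gm28438 (chr1:24613060-24613119, minus strand). Capitals mark positions that differ between a mitochondrial gene and a copy. Gm29216 differed from mt-Co1 at 1 of these 120 positions and Gm13340 at 4, and Gm28438 differed from mt-Nd3 at 1 of 60.
mt-Co1: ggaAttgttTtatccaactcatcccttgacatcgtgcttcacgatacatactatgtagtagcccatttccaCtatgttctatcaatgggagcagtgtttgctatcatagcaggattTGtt
Gm29216: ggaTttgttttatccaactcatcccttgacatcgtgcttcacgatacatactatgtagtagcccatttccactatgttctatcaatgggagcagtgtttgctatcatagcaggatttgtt
Gm13340: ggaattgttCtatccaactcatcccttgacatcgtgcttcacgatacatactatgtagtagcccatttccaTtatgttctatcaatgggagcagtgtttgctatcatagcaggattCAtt
mt-Nd3: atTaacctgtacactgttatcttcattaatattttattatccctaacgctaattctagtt
Gm28438: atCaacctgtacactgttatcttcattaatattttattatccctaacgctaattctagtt
Both genes of the ATP synthase also share bases with each other. The end of mt-Atp8 and the start of mt-Atp6 (chrM:7900-7969, plus strand) have 43 bases in common, shown in capitals, and reads from that overlap belong to both genes.
mt-Atp8 and mt-Atp6: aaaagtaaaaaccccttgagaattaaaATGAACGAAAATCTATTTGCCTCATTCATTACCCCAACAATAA

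Library totals ran from 18655506 to 39379940 counts. The 8 hepatocyte markers examined had counts in every library, with a summed level of 64657 to 70520 counts per 1e6 (CPM) in FL, 57903 to 101434 in ML and 66464 to 89231 in control libraries. ML 9 and control 1 stood apart. ML 9 had the lowest scaling factor (0.577, against 0.933 to 1.16 elsewhere), and its short nuclear genes were high. For 1225 nuclear genes shorter than 1000 bp, the median deviation from the mean log2 CPM of all libraries was 1.69 in ML 9 and 0.52 in control 1. It was -0.097 in ML 8 and 0.35 in ML 10, against -0.57 to -0.26 in FL and -0.51 to -0.35 in controls 2 to 4. With ML 9 and control 1 left out, ML libraries thus still lay above FL and control libraries in this respect. The 5 muscle markers summed to 323 CPM in ML 9, against at most 0.181 CPM elsewhere. Erythroid markers summed to 2114 CPM in ML 9 and 625 CPM in control 1, against 127 to 382 CPM elsewhere. Kupffer cell markers summed to 872 CPM in ML 9 (182 to 379 elsewhere), stellate cell markers to 332 (132 to 227) and pancreatic acinar markers to 243 (24.5 to 117). ML 9 was also highest for sinusoidal endothelial, T and NK cell, B cell and adipocyte markers, but not for cholangiocyte markers. The mean log2(CPM + 1) of the hepatocyte markers was 11.6 in ML 9, against 11.5 to 12.2 elsewhere. The part of these differences in the results below was not tested, and results that rest on ML 9 or control 1 are given with and without them.

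Transcripts of the mitochondrial genome took 4.87, 5.44 and 4.24% of all gene counts in FL 5, FL 6 and FL 7, and 4.25, 3.47 and 3.29% in ML 8, ML 9 and ML 10. In control libraries 1 to 4 the shares were 3.70, 5.83, 5.05 and 5.60%. The mean share was 4.85% ± 0.60 (SD, n = 3) in FL, 3.67% ± 0.51 (SD, n = 3) in ML and 5.05% ± 0.96 (SD, n = 4) in control livers. FL lay within the range of the controls. All 3 ML libraries lay below 3 of the 4 controls, and control 1 lay among them. The 95% Wilson intervals reached at most 0.00876 percentage points to either side, so counting error was small beside the spread between libraries. Sequenced reads without molecular identifiers are not independent molecules, so the intervals cover counting error alone. In these bulk samples, fewer mitochondria or hepatocytes and less mitochondrial RNA per cell cannot be told apart.

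Protein genes accounted for 76.8 to 93.7% of the mitochondrial counts in any library. Their share of all counts was 4.40% ± 0.66 in FL (SD, n = 3), 3.06% ± 0.56 in ML (SD, n = 3) and 4.57% ± 1.10 in control livers (SD, n = 4). The 2 rRNA genes took 0.390, 0.391 and 0.515% in FL, 0.529, 0.794 and 0.461% in ML and 0.686, 0.350, 0.380 and 0.431% in control libraries. ML 9 and control 1 held the highest rRNA shares of their groups, while their protein shares, 2.66 and 3.00%, were the lowest. The 22 tRNA genes together took 0.0143 to 0.0156% in FL, 0.0118 to 0.0144% in ML and 0.0136 to 0.0170% in control libraries, and their ranges overlapped.

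**Figure D1:**
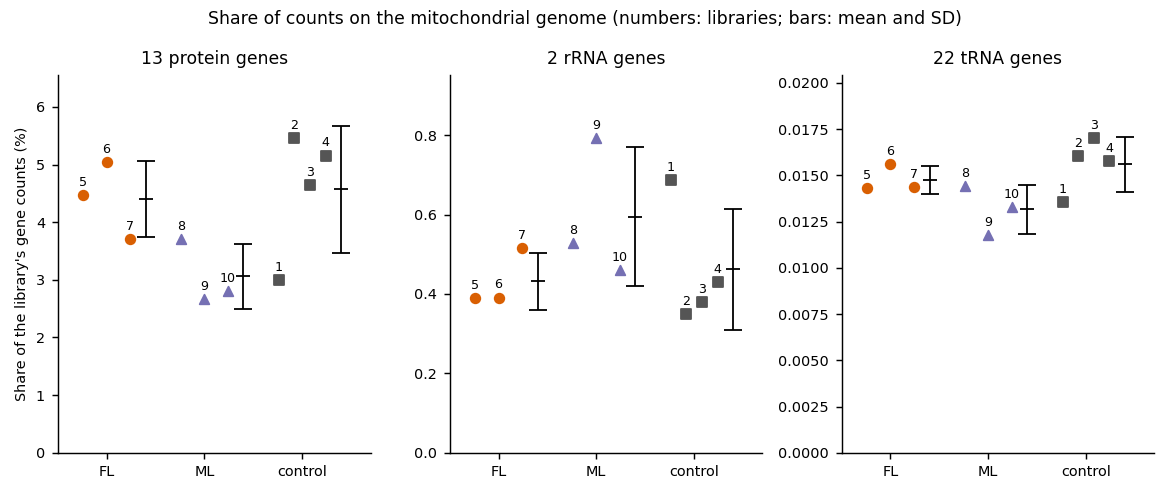
Share of each library's gene counts (%, each axis from 0) on the 13 protein, 2 rRNA and 22 tRNA genes of the mitochondrial genome in FL (n = 3), ML (n = 3) and control (n = 4) livers; points are libraries with their numbers, bars the mean and SD beside them. ML 9 and control 1 have the lowest protein shares of their groups, 2.66 and 3.00%, and the highest rRNA shares, 0.794 and 0.686%.

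Levels per length differed widely along the genome. Expressed as CPM per kilobase of gene and averaged over all 10 libraries, mt-Cytb, which encodes cytochrome b of complex III, had 8105 and mt-Co1 had 7900. These neighbours in the order were not apart, since mt-Cytb lay above mt-Co1 in 3 of 10 libraries and below it in the others. The complex I genes mt-Nd2 and mt-Nd1 followed at 5252 and 4998, and mt-Nd2 was the higher of both in 7 of 10 libraries. mt-Nd6, the single protein gene read from the other strand, had 3521 and lay below mt-Nd1 and above mt-Nd4 (2609) in every library. The strand setting of the counting is not given, so RNA from either strand across mt-Nd6 cannot be told apart. mt-Rnr2 (16S rRNA, 2252), mt-Rnr1 (12S rRNA, 1822) and mt-Nd5 (1535) came next, and each adjacent pair changed places in at least 3 of the 10 libraries. mt-Rnr2 itself was below mt-Nd4 in 6 of 10 libraries. The rRNA level after poly(A) selection is not a measure of mitochondrial ribosome content.

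The other protein genes stood far below. mt-Co3 had 122 CPM per kilobase, mt-Atp6 117, mt-Co2 96.1, mt-Nd3 58.4, mt-Atp8 32.4 and mt-Nd4l 13.5, although mt-Co2 and mt-Co3 encode the other core subunits of complex IV beside mt-Co1. These 6 genes lie next to each other, inside the stretch from base 6390 to base 11042 (4653 bp), called the copied stretch below. It is the span of near-identical matches to 7 pseudogenes on chromosome 1. Only annotated transcripts were compared, so bases between the matches were not, and 21.1% of mt-Atp8 was matched. The pseudogenes lie between 24611535 and 24616197 of chromosome 1, on the minus strand and in the same order. Gm28439, Gm28437, Gm28661, Gm10925 and Gm10222 are identical to the mitochondrial gene over the whole match. Gm29216 is 99.8% and Gm28438 99.7% identical. mt-Co1 and mt-Nd4 lie partly inside the stretch, with 31.3 and 63.6% of their bases matched at 99% identity or more, while mt-Nd1, mt-Nd2, mt-Nd5, mt-Nd6 and mt-Cytb lie outside it.

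In every library the highest of the 6 genes inside the stretch lay below the lowest of the 5 outside it. The mean CPM per kilobase of the genes outside was 103, 90.7 and 72.6 times that of the genes inside in FL, 58.6, 41.8 and 50.6 times in ML, and 37.1, 90.5, 92.0 and 77.3 times in control libraries. tRNA genes inside the stretch were also low, although mt-Ts1 had 4.3% of its bases in a match and mt-Td, mt-Tk, mt-Tg and mt-Tr had 0%. The 5 inside the stretch, mt-Ts1, mt-Td, mt-Tk, mt-Tg and mt-Tr, had 28 counts in total over all 10 libraries and no gene more than 4 in any library, and mt-Td, mt-Tk and mt-Tg had none, where a count of 0 allows up to 3 counts per library. Of the 17 tRNA genes outside, 14 had over 100 counts in total, while mt-Tf had 15, mt-Tv 31 and mt-Tt 92. tRNA genes inside and outside thus overlapped, since mt-Tr, inside, had 24. How reads that match a mitochondrial gene and its nuclear copy equally well were counted is not given in the sources used here, so whether the low values inside the stretch are those of the RNA cannot be told from the counts.

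**Figure D2:**
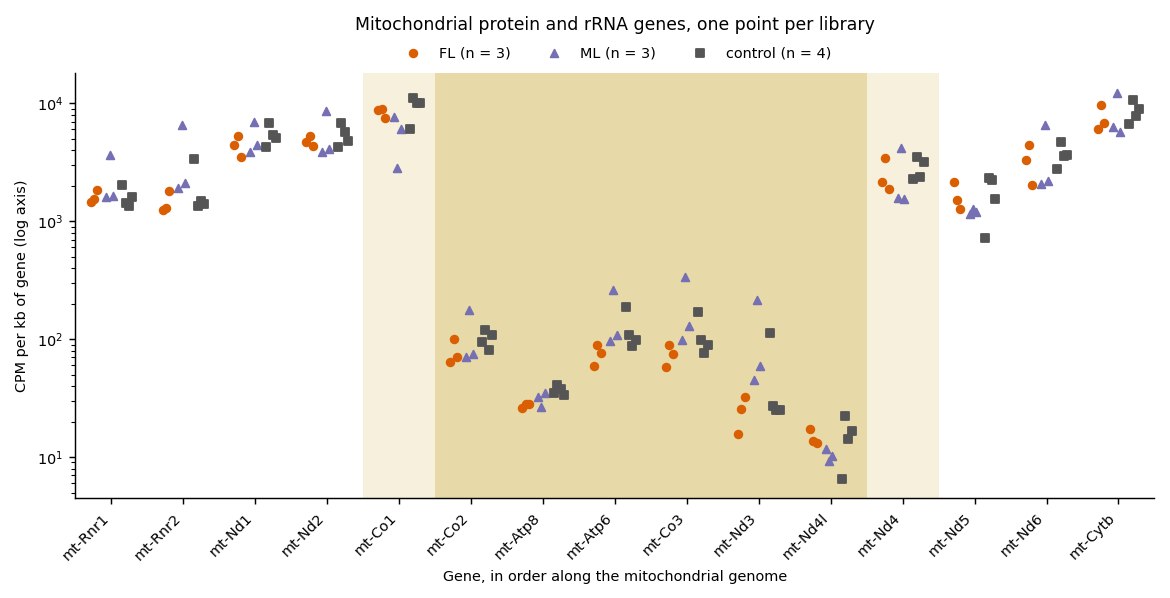
Level of the 15 protein and rRNA genes (CPM per kilobase of gene, log axis), in their order along the mitochondrial genome, with 1 point per library for FL (n = 3), ML (n = 3) and control (n = 4) livers. Darker shading marks genes inside the stretch spanned by the chromosome 1 matches and lighter shading genes partly inside. The 6 genes in the darker band lie below every gene outside it in every library.

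Counts of the copies were set beside those of the genes. mt-Atp6, a membrane subunit of the ATP synthase, had 0.848 to 1.01 counts for each count of its copy Gm10925 over the 10 libraries, and mt-Nd4l had 0.693 to 1.35 for each count of Gm10222. mt-Co2 had 1.48 to 1.88 for each count of Gm28661 and mt-Co3 had 1.20 to 1.71 for each count of Gm28437. These 4 pairs, identical over the match, had counts of similar size. So did mt-Co2 and Gm13341, a chromosome 2 copy at 95.9% identity, with 1.25 to 1.60 counts for each count of Gm13341. The other copies below 99% identity had far fewer counts than their genes. mt-Co1 had 29.3 to 128 counts for each count of Gm13340 (97.6% identity). mt-Nd2 had 84.7 to 457 for each count of Gm13339 (96.7%), and mt-Nd5 had 642 to 947 for each count of Gm4076 (95.2%). Matches at 95% identity or more covered 100% of mt-Co1, 49.1% of mt-Nd2 and 52.3% of mt-Nd5. mt-Nd3 had fewer counts than Gm28438, its copy with 1 mismatch, at 0.164, 0.320 and 0.341 in FL, 0.428, 0.569 and 0.356 in ML and 0.537, 0.216, 0.173 and 0.198 in control libraries. The genes that extend past the stretch had far more counts than their copies. mt-Nd4 had 134, 180 and 143 counts for each count of Gm28439 in FL, 156, 475 and 144 in ML and 468, 136, 131 and 142 in control libraries, so that ML 9 and control 1 were the 2 high values. mt-Co1 had 116.9 to 231 counts for each count of Gm29216 in 9 libraries and 36.0 in ML 9.

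**Figure D3:**
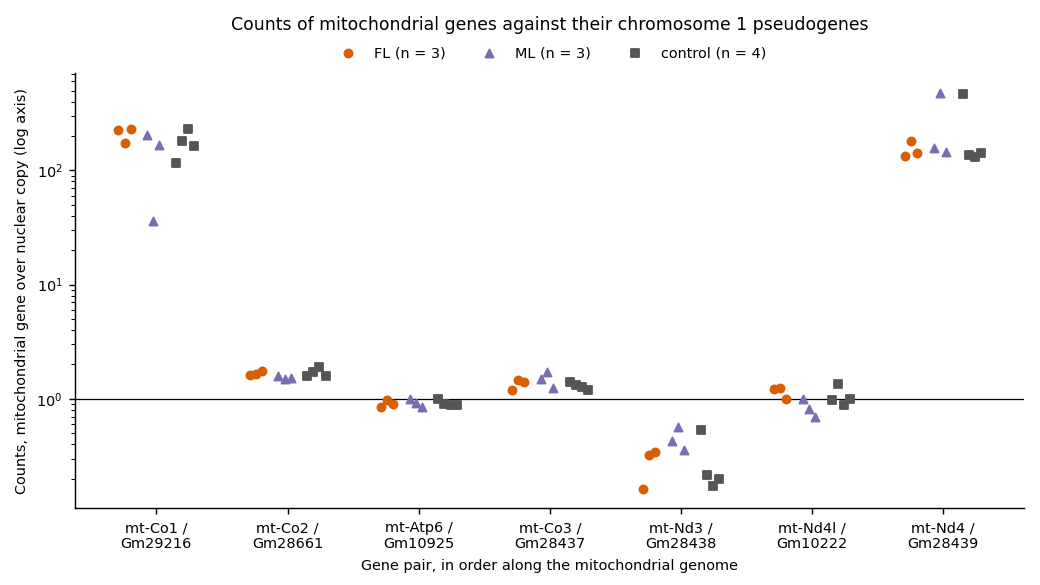
Counts of 7 mitochondrial protein genes divided by the counts of their chromosome 1 pseudogenes in the same library (log axis), for FL (n = 3), ML (n = 3) and control (n = 4) livers; the line marks equal counts. The 5 genes inside the copied stretch lie between 0.164 and 1.88, and mt-Co1 and mt-Nd4, which extend past it, between 36.0 and 475.

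Offspring of LIRKO fathers were set against control livers to ask whether a father's hepatic insulin receptor loss goes with other mitochondrial RNA levels in his offspring. None of the 30 genes passed the test (edgeR's quasi-likelihood test, Benjamini-Hochberg adjusted p under 0.05 over all 14820 genes tested), where 2 genes or 0.0135% passed in all. DESeq2 and limma-voom also called none of the 30. All 13 protein genes had a log2 fold change below 0, from -0.95 to -0.02 with a median of -0.19, beside a median of -0.05 and 55.3% below 0 over all genes tested, but mt-Nd4l and mt-Nd5 lay above 0 with scaling by library totals only or in limma-voom. At an unadjusted p under 0.05, 3 of the 30 lay lower and 0 higher, where 1.90% of all genes lay lower and 1.63% higher, or 3.53% in all. Without control 1 the count was 2 (3.87% of all genes), and without control 1 and ML 9 it was 5 (6.81%), all tRNA genes and lower. FL and control libraries did not overlap for 3 of the 30, which were lower, where 2.92% of all genes were lower and 2.79% higher without overlap, or 5.71% in all. By share of the library total mt-Atp8 alone of the 30 did not overlap, and all genes were not counted on that scale.

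Complex I genes outside the copied stretch overlapped between FL and control livers. Libraries are given in the order FL 5, 6 and 7, ML 8, 9 and 10, and control 1 to 4. The CPM of ML 9 rests on its scaling factor of 0.577, so its place among the libraries is also given by plain share of the library total, chosen after seeing the data. mt-Nd1 had 4233, 5063 and 3379 CPM in FL, 3698, 6664 and 4233 CPM in ML and 4113, 6513, 5117 and 4815 CPM in control livers. mt-Nd2 had 4874, 5496 and 4478 CPM in FL, 4020.2, 8986 and 4221 CPM in ML and 4409.8, 7088, 5962 and 4976 CPM in control livers. For both genes control 2 was the highest control, and ML 9 was the highest library by CPM but, by share of the library total, ranked 9 of 10 for mt-Nd1 and 6 of 10 for mt-Nd2. mt-Nd5 had 3899, 2741 and 2307 CPM in FL, 2121, 2307 and 2171 CPM in ML and 1306, 4233, 4120.4 and 2798 CPM in control livers, and control 1 was the lowest of all libraries. mt-Nd6 had 1707, 2282 and 1047 CPM in FL, 1077, 3386 and 1145 CPM in ML and 1436, 2442, 1845 and 1904 CPM in control livers. mt-Nd4, partly inside the copied stretch, had 2975, 4723 and 2564 CPM in FL, 2159, 5733 and 2143 CPM in ML and 3173, 4811, 3296 and 4379.6 CPM in control livers. ML 9 was thus the highest library by CPM for 4 of these 5 genes and by share of the library total for 0 of them, where it ranked 6 of 10 for mt-Nd4 and 5 of 10 for mt-Nd6.

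mt-Cytb had 6966, 11134 and 7788 CPM in FL, 7191, 14116 and 6547 CPM in ML and 7708, 12212, 8887 and 10173 CPM in control livers. The groups overlapped, with a log2 fold change of -0.18 (SE 0.35, adjusted p = 1.00, edgeR) in FL against control. mt-Co1 had 13543, 13728 and 11681 CPM in FL, 11716, 4408 and 9432 CPM in ML and 9334, 17295, 15446 and 15470 CPM in control livers. FL lay between the lowest control and the other 3, with a log2 fold change of -0.15 (SE 0.36, adjusted p = 1.00, edgeR). ML 9 was the lowest library for mt-Co1 by CPM and by share. For mt-Cytb it was the highest by CPM but ranked 7 of 10 by share. The ratio of mt-Co1 to mt-Cytb counts, which no scaling factor touches, was 0.312 in ML 9 and 1.21 to 1.94 in the other 9 libraries.

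Genes inside the copied stretch had low counts. mt-Co2 had 44.0, 68.5 and 48.0 CPM in FL, 48.4, 120.8 and 51.7 CPM in ML and 64.8, 81.3, 55.5 and 74.2 CPM in control livers. mt-Co3 had 45.4, 70.2 and 59.1 CPM in FL, 76.5, 264 and 101.9 CPM in ML and 132, 76.7, 60.1 and 70.3 CPM in control livers. ML 9 was the highest library for mt-Co3 by CPM and by share, and for mt-Co2 by CPM only (4 of 10 by share). Control 1 was the highest control for mt-Co3 and not for mt-Co2. mt-Atp6 had 40.6, 61.1 and 52.4 CPM in FL, 65.7, 178 and 73.5 CPM in ML and 128.7, 73.9, 59.2 and 66.6 CPM in control livers. Its log2 fold change in FL against control was -0.68 (SE 0.41, adjusted p = 1.00, edgeR). mt-Atp8, which encodes the other mitochondrial subunit of the ATP synthase, had 5.37, 5.73 and 5.79 CPM in FL, 6.54, 5.41 and 7.20 CPM in ML and 7.18, 8.28, 7.66 and 6.86 CPM in control livers. It was the only protein gene for which FL and control livers did not overlap, with an adjusted p of 1.00 (edgeR).

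mt-Nd3 had 5.48, 8.92 and 11.2 CPM in FL, 15.6, 74.8 and 20.5 CPM in ML and 39.5, 9.48, 8.80 and 8.77 CPM in control livers. FL libraries lay around the 3 lower controls and ML libraries above them, with a log2 fold change of -0.95 (SE 0.68, adjusted p = 1.00, edgeR) in FL against control. mt-Nd4l had 5.11, 4.08 and 3.93 CPM in FL, 3.47, 2.74 and 3.01 CPM in ML and 1.94, 6.57, 4.22 and 4.91 CPM in control livers. mt-Nd3 and mt-Nd4l, near neighbours in the genome, were furthest apart in ML 9 and control 1. The ratio of mt-Nd3 to mt-Nd4l counts was 27.3 in ML 9 and 20.4 in control 1, against 1.07 to 6.82 elsewhere. It rests on few counts of mt-Nd4l, 42 in ML 9 and 34 in control 1.

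For the rRNA genes, mt-Rnr1 had 1384, 1478 and 1755 CPM in FL, 1546, 3513 and 1574 CPM in ML and 1954, 1362, 1298 and 1539.7 CPM in control livers. mt-Rnr2 had 1968, 2045 and 2879 CPM in FL, 3052, 10262 and 3369.8 CPM in ML and 5336, 2146, 2372 and 2199 CPM in control livers. ML 9 was the highest library for both and control 1 the highest control, by CPM and by share. mt-Rnr2 had a log2 fold change of -0.39 (SE 0.49, adjusted p = 1.00, edgeR) in FL against control, which was 0.037 without control 1. The ratio of mt-Rnr2 to mt-Rnr1 counts was 1.42, 1.38 and 1.64 in FL, 1.97, 2.92 and 2.14 in ML and 2.73, 1.58, 1.83 and 1.43 in control livers. The ML ratios lay above every FL ratio and above 3 of the 4 controls.

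tRNA counts came mostly from the minus strand genes. The 8 tRNA genes on that strand, which is the sparsely coding one, held 85.9% of the 46401 tRNA counts, and from 79.0 to 91.0% in a single library. mt-Tp, the tRNA for proline, held 59.6% by itself. mt-Tp had 68.1, 77.0 and 81.1 CPM in FL, 91.8, 146.6 and 103.7 CPM in ML and 106.0, 88.9, 65.2 and 76.5 CPM in control livers. mt-Te, for glutamate, had 22.8, 27.7 and 18.6 CPM in FL, 11.2, 12.9 and 11.8 CPM in ML and 8.95, 30.2, 32.9 and 19.8 CPM in control livers. As a part of each library's tRNA counts, which no scaling factor touches, mt-Tp made up 73.2, 71.7 and 72.9% in ML against 73.6, 55.3, 39.7 and 56.0% in control livers, and 55.5, 54.7 and 62.8% in FL. mt-Te made up 8.89, 6.32 and 8.26% in ML against 6.21, 18.8, 20.03 and 14.5% in control livers, and 18.5, 19.7 and 14.4% in FL. ML libraries lay above FL for mt-Tp and below FL for mt-Te, with control 1 beside the ML libraries for both. Whether the counting used strand is not given in the sources used here, so reads of a tRNA gene and of an RNA from the other strand across it cannot be told apart.

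mt-Tl2, the leucine tRNA printed with the anticodon TAG, had 8.11, 3.45 and 5.39 CPM in FL, 4.28, 6.13 and 6.79 CPM in ML and 3.48, 9.35, 12.96 and 8.56 CPM in control livers. mt-Tc, for cysteine, had 3.48, 8.92 and 4.75 CPM in FL, 3.18, 6.45 and 3.57 CPM in ML and 5.47, 6.19, 10.1 and 6.05 CPM in control livers. mt-Tn, for asparagine, had 3.41, 8.45 and 3.99 CPM in FL, 2.78, 6.26 and 3.32 CPM in ML and 5.13, 6.22, 9.34 and 5.74 CPM in control livers. mt-Tc and mt-Tn lie next to each other, and FL 6 and control 3 were the highest libraries for both. The other 10 tested tRNA genes averaged 4.37 to 44.7 CPM per kilobase over all libraries. mt-Tf and mt-Tv, which flank mt-Rnr1, had 15 and 31 counts in total and were not tested.

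The 3 genes with an unadjusted p under 0.05 in FL against control were tRNA genes, named here after their values were seen. mt-Tw, for tryptophan, had 0.78, 1.10 and 0.58 CPM in FL and 2.05, 1.17, 3.88 and 1.35 CPM in control livers. mt-Ta, for alanine, had 1.30, 0.98 and 0.84 CPM in FL and 2.22, 1.45, 4.99 and 1.55 CPM in control livers. For these near neighbours every FL library lay below every control by CPM, but not by share of the library total. Their log2 fold changes were -1.36 (SE 0.58, unadjusted p of 0.0389) and -1.29 (SE 0.59, unadjusted p of 0.0493), each with an adjusted p of 1.00 (edgeR). mt-Tl1, which sits between mt-Rnr2 and mt-Nd1, had 1.93, 2.23 and 1.40 CPM in FL and 1.60, 3.44, 8.41 and 3.23 CPM in control livers, with a log2 fold change of -1.18 (SE 0.52, adjusted p = 1.00, edgeR). Control 3 was the highest library for all 3 genes. Without it the unadjusted p was 0.151 for mt-Tw, 0.210 for mt-Ta and 0.212 for mt-Tl1.

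**Figure D4:**
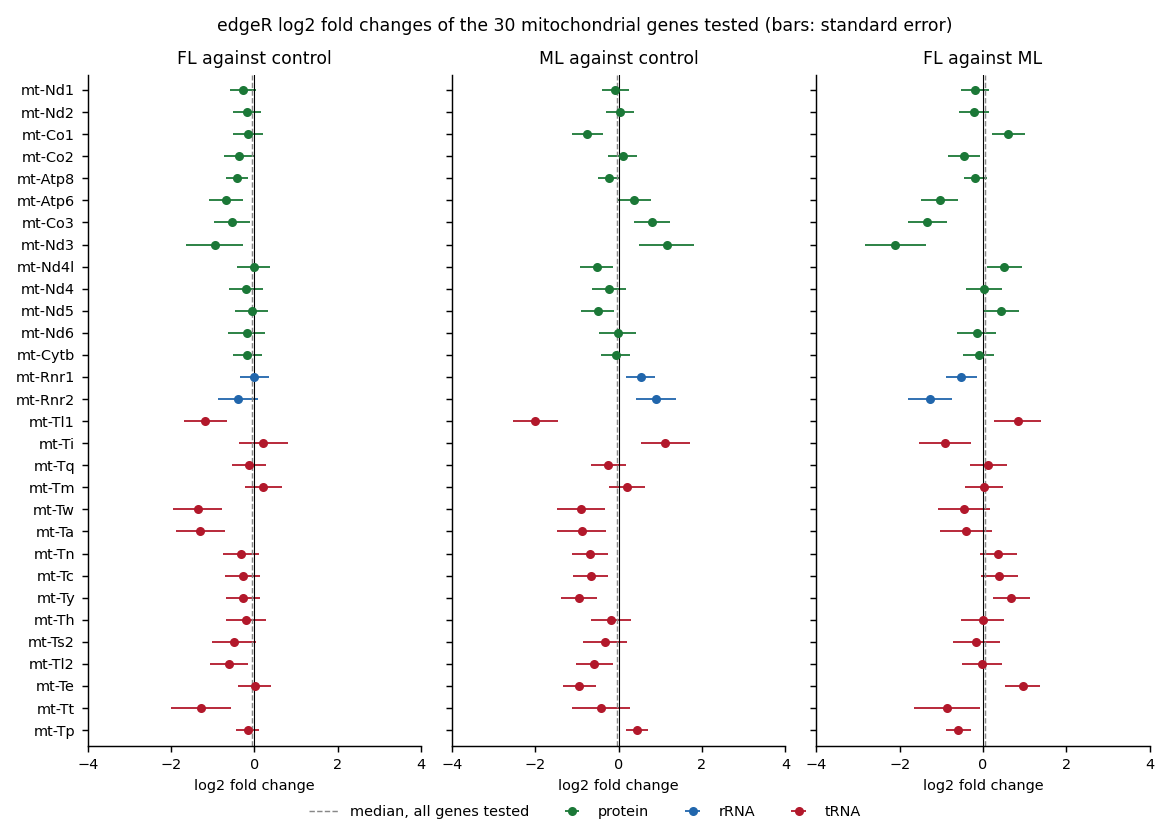
Log2 fold changes with standard errors of the 30 tested mitochondrial genes (protein genes, rRNA genes and tRNA genes, each in genome order) in FL against control, ML against control and FL against ML, from edgeR; the dashed line is the median of all genes tested. The 13 protein genes lie between -0.95 and -0.02 in FL against control and between -0.76 and 1.15 in ML against control, and none of the 30 passed the test in any of the 3.

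Offspring of LIRKO mothers were set against the same control livers, so both comparisons share their controls. None of the 30 genes passed (edgeR, lowest adjusted p = 0.301), where 0% of all genes passed, and 2392 of the 14820 genes had an unadjusted p under 0.05. DESeq2 called 46 genes, none of them mitochondrial (lowest adjusted p = 0.0552), and limma-voom called 0. At an unadjusted p under 0.05, 3 of the 30 lay lower and 0 higher, where 7.33% of all genes lay lower and 8.81% higher. ML and control libraries did not overlap for 2 of the 30, both lower, where 2.86% of all genes were lower and 2.17% higher without overlap, or 5.03% in all. By share of the library total there were 3 such genes, mt-Tl1, mt-Tc and mt-Tn, all lower, but all genes were not counted on that scale.

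Both rRNA genes lay above 0 in ML against control, while 12 of the 15 tested tRNA genes lay below 0 at a median of -0.59. The tRNA median was -0.32 without control 3 and -1.80 with the trend on gene length and GC content removed, where all 15 lay below 0. mt-Rnr1 had a log2 fold change of 0.52 (SE 0.34, unadjusted p of 0.154) and mt-Rnr2 of 0.88 (SE 0.48, unadjusted p of 0.0915), with adjusted p of 0.420 and 0.353 (edgeR). Without ML 9 the median of both was 0.07, and with 1 surrogate variable both lay below 0, at -0.074 and -0.15. The protein genes were divided, with 8 below 0 and 5 above, a median of -0.07 beside -0.05 and 52.9% below 0 for all genes, and a range from -0.76 for mt-Co1 (SE 0.37, unadjusted p of 0.0628) to 1.15 for mt-Nd3 (SE 0.66, unadjusted p of 0.104). mt-Co3 stood at 0.80 (SE 0.43, unadjusted p of 0.0895) and mt-Cytb at -0.07 (SE 0.35, unadjusted p of 0.845). None of these 4 passed, with adjusted p from 0.320 to 0.930 (edgeR). mt-Co1 and mt-Co3, both of complex IV, thus had fold changes of opposite sign, with mt-Co3 inside the copied stretch and most of mt-Co1 outside it.

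The median of the protein genes depended on ML 9, the library with the muscle markers. It was -0.43 without ML 9, with 11 of 13 below 0, and -0.54 without ML 9 and control 1, with 10 of 13 below 0. Without ML 9, 6 of the 30 genes lay lower at an unadjusted p under 0.05 (4.37% of all genes in either direction), and without control 1, 7 lay lower and 3 higher (35.1% of all genes). With both left out 14 of the 30 genes lay lower and 2 higher at an unadjusted p under 0.05, where 27.5% of all genes did so in either direction, and the lowest adjusted p was 0.0954 (edgeR). Scaling by library totals only gave a median of -0.41, with the median of all genes shifted by -0.20.

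mt-Tl1 had the lowest p of the 30 genes. Its level was 0.87, 0.91 and 1.33 CPM in ML and 1.60, 3.44, 8.41 and 3.23 CPM in control livers, so that every ML library lay below every control. The log2 fold change was -2.003 (SE 0.54, adjusted p = 0.301, edgeR), with an unadjusted p of 0.00310. It lay between -2.87 and -1.41 under all alternatives tried, with the smallest size without control 3. mt-Te, whose values are given above, stood at -0.95 (SE 0.40, adjusted p = 0.301, edgeR). mt-Ty, for tyrosine, had 2.50, 1.37 and 1.89 CPM in ML and 2.68, 2.57, 6.44 and 3.27 CPM in control livers, with no overlap by CPM and a log2 fold change of -0.95 (SE 0.42, adjusted p = 0.305, edgeR). By share of the library total mt-Ty overlapped and mt-Tl1 did not. Without control 3 the unadjusted p was 0.112 for mt-Te and 0.182 for mt-Ty.

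FL and ML offspring were also set against each other, which asks whether it matters which parent lacked the receptor and uses no control library in the contrast. None of the 30 genes passed (edgeR, lowest adjusted p = 0.238), where 1 gene or 0.00675% passed in all. DESeq2 called 248 genes and none of the 30 (lowest adjusted p = 0.0506). At an unadjusted p under 0.05, 4 of the 30 lay lower (12.4% of all genes) and 1 lay higher (7.59%). FL and ML libraries did not overlap for 8 of the 30, 5 lower and 3 higher, where 31.7% of all genes did not overlap. By share of the library total there were 3 lower, mt-Nd3, mt-Co3 and mt-Atp6, and 7 higher. The part of all genes without overlap was not counted on that scale, so these counts have no background beside them.

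The 4 lower genes were mt-Nd3, mt-Co3, mt-Atp6 and mt-Rnr2, and the higher one was mt-Te. mt-Nd3, mt-Co3 and mt-Atp6 lie inside the copied stretch, where it cannot be told whether the counts are those of the RNA. mt-Nd3 had a log2 fold change of -2.11 (SE 0.73, unadjusted p of 0.0143) and mt-Co3 of -1.34 (SE 0.47, unadjusted p of 0.0154). mt-Rnr2 stood at -1.28 (SE 0.53, unadjusted p of 0.0325), mt-Atp6 at -1.04 (SE 0.44, unadjusted p of 0.0343) and mt-Te at 0.95 (SE 0.42, unadjusted p of 0.0457). Their adjusted p ranged from 0.238 to 0.247 (edgeR). Every FL library lay below every ML library for the first 4, and above every ML library for mt-Te, but mt-Rnr2 overlapped by share of the library total. Without ML 9 the unadjusted p was 0.124 for mt-Nd3 and 0.111 for mt-Co3, and both remained below 0, at -1.09 and -0.63. At an unadjusted p under 0.05 there were 0 of the 30 without ML 9 (4.79% of all genes), and 2 lower and 2 higher without ML 9 and control 1 (19.4%). The median over the protein genes was -0.18, with 9 of 13 below 0, beside 0.04 and 47.9% below 0 for all genes, and turned to 0.25 without ML 9 and to 0.29 with scaling by library totals only, which shifted the median of all genes by 0.33.

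Deviations from the mean log2 CPM over all libraries were compared along the genome. ML 9 and control 4 each lay above the mean for 22 of the 30 genes, control 2 for 21 and control 3 for 19. By share of the library total ML 9 lay above the mean for 11. Over the protein and rRNA genes the median log2 CPM deviation of ML 9 was 0.77. It lay furthest above for mt-Nd3, mt-Ti, mt-Rnr2 and mt-Co3 and furthest below for mt-Co1, mt-Tl1 and mt-Ty. Control 1 lay low over a continuous run of neighbours, with deviations of -1.12 for mt-Th, -1.28 for mt-Ts2, -0.85 for mt-Tl2 and -1.02 for mt-Nd5, and again at -1.001 for mt-Te and -0.95 for mt-Nd4l. In control 3 the tRNA genes had a median deviation of 0.89, against -0.02 for its protein and rRNA genes.

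**Figure D5:**
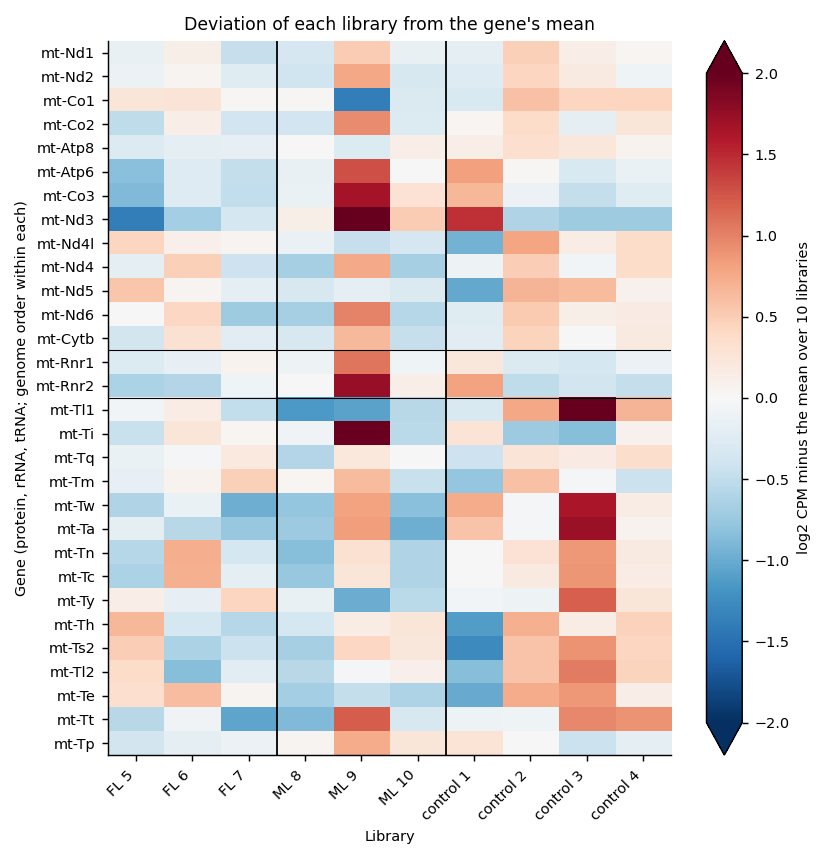
Deviation of each library (columns, FL, ML and control from left to right) from the mean log2 CPM of the gene over 10 libraries (colour, with both ends open beyond the scale) for the 30 tested mitochondrial genes (rows, protein, rRNA and tRNA genes in genome order). ML 9 is furthest above the mean for mt-Nd3 and furthest below for mt-Co1, control 1 is low from mt-Th to mt-Nd5, and control 3 is high for most tRNA genes.

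Nuclear genes that serve the mitochondrial genome were counted from lists, and none of them passed in any of the 3 comparisons (edgeR). In FL against control the 20 genes of mitochondrial DNA transcription and replication had a median log2 fold change of -0.08, with 9 above 0 and 11 below. Those with the lowest p were Exog, a mitochondrial nuclease, at 0.93 (SE 0.39, adjusted p = 1.00, edgeR), and Twnk, the helicase of mitochondrial DNA replication, at 0.66 (SE 0.27, adjusted p = 1.00, edgeR). Ppargc1a, a coactivator known to promote mitochondrial biogenesis, stood at -1.27 (SE 0.48, adjusted p = 1.00, edgeR), and 7 of the 11 regulators in its list lay above 0. Of 35 genes of mitochondrial RNA processing and turnover 26 lay above 0, at a median of 0.20. The 20 mitochondrial aminoacyl-tRNA synthetase genes were divided evenly, 10 above and 10 below 0.

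In ML against control, 31 of the 35 RNA processing genes lay above 0 at a median of 0.21. Mrm2, which methylates the 16S rRNA, stood at 1.35 (SE 0.42, unadjusted p of 0.00759), Hsd17b10, a subunit of the mitochondrial RNase P that cuts the tRNAs out, at 1.30 (SE 0.57, unadjusted p of 0.0417), and Slirp, which with Lrpprc stabilises mitochondrial messenger RNAs, at 1.32 (SE 0.58, unadjusted p of 0.0419). Their adjusted p were 0.301 to 0.305 (edgeR), and 8.81% of all genes lay higher at an unadjusted p under 0.05. The summed level of the 35 genes was 935, 2121 and 1152 CPM in ML and 1153, 878, 858 and 862 CPM in control libraries. ML 9 was thus the highest ML library and control 1 the highest control. Polrmt, the mitochondrial RNA polymerase, stood at -0.76 (SE 0.41, adjusted p = 0.350, edgeR). The 20 synthetase genes had a median of 0.03 and the 11 regulators one of -0.32. Of 76 tested mitoribosomal protein genes 74 lay above 0, at a median of 0.93, which was 0.30 without ML 9 and 0.66 without ML 9 and control 1. With 1 surrogate variable 59 of the 76 lay above 0, at a median of 0.11.

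Nuclear and mitochondrial subunits of the same respiratory complexes had different medians in ML against control. Nuclear subunits lay above 0 in 35 of 36 genes of complex I, 8 of 8 of complex III, 11 of 11 of complex IV and 14 of 15 of the ATP synthase, with medians of 1.19, 1.43, 1.33 and 1.06, beside -0.07 for the 13 mitochondrial genes. Without ML 9 and control 1 these medians were 0.72, 0.77, 0.86 and 0.69, beside -0.54 for the mitochondrial genes. That setting also drops control 1, the highest control for each of these nuclear lists by summed level, so it does not show leaving out ML 9 alone. The summed level of the 11 nuclear complex IV genes was 3164, 16360 and 4649 CPM in ML and 6240, 2261, 2168 and 2238 CPM in control libraries, and ML 9 and control 1 were the 2 highest of all 10. With the trend on gene length and GC content removed, the nuclear medians were 0.67 to 0.90 and the mitochondrial one -0.98. With 1 surrogate variable the nuclear medians were 0.11, 0.085, 0.059 and 0.058, with 29 of 36, 5 of 8, 8 of 11 and 9 of 15 above 0, beside -0.21 for the mitochondrial genes. In FL against control the nuclear medians were -0.28, -0.34, -0.36 and -0.31, and became 0.10, 0.12, 0.09 and 0.11 without control 1 and ML 9, where that of the mitochondrial genes was -0.29. With 1 surrogate variable they were -0.013, -0.022, -0.034 and -0.020, beside -0.27 for the mitochondrial genes. The difference between nuclear and mitochondrial subunits was not tested.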

How the data were processed

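Raw counts per gene of 10 poly(A)-selected, paired-end mouse liver libraries were deposited by the authors, who used STAR, featureCounts and the GRCm38 build per the submitters' processing notes. Not given in the sources used here are versions, annotation release, strand setting and the treatment of reads with several matches. Ensembl identifiers were matched to GENCODE M21 (45229 of 46071 rows), which also gave coordinates and sequences. Nuclear copies were searched among its transcripts, since no genome was used here, with BLAST 2.17.0 (at least 95% identity over 200 bp) against the mitochondrial contig rebuilt from its transcripts.

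Genes were kept by filterByExpr with a minimum count of 10 (14820 genes) and tested with edgeR 4.0.16 (TMM factors, quasi-likelihood F test with 1 coefficient per group over all 10 libraries, 7 residual degrees of freedom, two-sided, Benjamini-Hochberg adjustment over all genes tested, threshold 0.05). The biological coefficient of variation was 0.448. CPM uses the TMM-scaled totals and deviations add a prior count of 2. Alternatives were DESeq2 1.42.0, limma-voom (limma 3.58.1), other scaling factors, filters and thresholds, a length and GC trend offset, 1 surrogate variable (sva 3.50.0), left-out libraries and, chosen after seeing the data, mitochondrial genes merged with their near-identical copies. The test was checked on simulated data. The members, lists and alternatives, including leaving out control 1 and ML 9, were chosen with earlier results of these data known. Per-library values were printed for all protein and rRNA genes and the 5 tRNA genes of highest mean CPM, and among the nuclear lists only genes of lowest p in the transcription, RNA processing and regulator lists were named, the other lists being given by counts and medians.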

Additional observations from a re-analysis of the deposited data

Results flagged for a closer look

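In groups of 4 libraries, which here means the controls, a library was marked when its gap to the nearest other exceeded the range expected at the 95% level (Dixon's ratio). Of 41 values examined 5 were marked, where chance marks about 1 in 20. Control 1 was high in 4 of the 5. mt-Rnr2 had 5336 CPM in control 1, against 2146 to 2372 CPM in the other controls. mt-Nd3 had 39.5 CPM in control 1, against 8.77 to 9.48 CPM. The ratio of both rRNA genes to the 5 protein genes outside the copied stretch was 0.384 in control 1, against 0.108 to 0.152, and the ratio of mt-Nd3 to mt-Nd4l counts was 20.4, against 1.44 to 2.09. In control 3, mt-Tc had 10.1 CPM, against 5.47 to 6.19 CPM in the other controls.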

How the results depend on the processing

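No mitochondrial gene passed in any comparison under any alternative run. No paired analysis was possible because the labels link no libraries across groups. The count of all genes passing in FL against control was 2, and 52 with DESeq2, 1 with limma-voom, 1 with no filter and 0 to 2 with a library left out (0 without control 1, FL 5, FL 6 or FL 7). In ML against control it was 0, and 46 with DESeq2, 3 with no filter and 0 to 1 with a library left out (1 without control 1). In FL against ML it was 1, and 2 at a threshold of 0.10, 248 with DESeq2, 0 with library totals only, 2 with no filter, 0 with only the groups compared, 2 with the length and GC trend removed and 0 to 1 with a library left out (0 without FL 5, FL 6, FL 7 or ML 8). The median of the protein genes in FL against control was -0.43 to -0.083 with a library left out. In ML against control it was -0.98 with the trend removed, -0.54 without control 1 and ML 9 and -0.43 (without ML 9) to 0.12 with a library left out. In FL against ML it was 0.29 with library totals only, 0.84 with the trend removed, 0.26 without control 1 and ML 9 and -0.36 to 0.25 with a library left out. Over the alternatives run, the sign of 9 of the 30 genes in FL against control, 19 in ML against control and 25 in FL against ML changed at least once. They included 3, 11 and 11 of the 13 protein genes. In ML against control mt-Nd2 kept its sign in 10 of 20 alternatives, and in FL against ML mt-Cytb and mt-Nd6 kept theirs in 13 of 19. Values are printed only for a smaller set followed by name. In FL against control these were for mt-Rnr2 (0.00015 with the trend removed, 0.042 without control 1 and ML 9, and -0.58 to 0.037 with a library left out). In ML against control, mt-Rnr1 was at -0.31 and mt-Co3 at -0.027 with the trend removed, and with 1 surrogate variable mt-Rnr1 was at -0.074, mt-Rnr2 at -0.15, mt-Co3 at -0.094 and mt-Nd3 at -0.19. mt-Cytb was above 0 without control 2, ML 8 or ML 10 (0.057, 0.079 and 0.12) and ranged from -0.49 to 0.12 with a library left out. In FL against ML, mt-Atp6 was at 0.18 with the trend removed, and mt-Rnr2 at 0.073 and mt-Co1 at -0.061 with 1 surrogate variable. The cause of these changes was not tested. Merging near-identical copies, chosen after seeing the data, left the median of the protein genes at -0.19, -0.07 and -0.18. Depth did not limit the rRNA genes and the protein genes outside the copied stretch. Inside it, mt-Nd4l had 34 counts in control 1 and 42 in ML 9, and mt-Atp8 had 83 in ML 9. tRNA genes near 1 CPM also rest on few counts per library, and with 3 or 4 libraries a group the test rests on few degrees of freedom.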
